A study of Mus musculus with 4 samples.

Results

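Peaks of transketolase at core promoters in the mouse retina, found by chromatin immunoprecipitation followed by sequencing (ChIP-seq), are described here. A core promoter peak was one that the authors' annotation classed as promoter and whose centre lay within 500 bp of the listed start site, on either side. By that rule the induced list held 503 core promoter peaks among 30791 peaks (1.63%, 95% Wilson interval 1.5 to 1.78%). The control list held 538 among 18267 peaks (2.95%, 2.71 to 3.20%), so that 1041 of 49058 peaks were core promoter peaks. The lists differ in their lowest tag count, and with a minimum of 14 tags in both the induced share was 2.57%, beside 2.95% in the control list. The peaks lay next to 495 genes in the induced list and 532 genes in the control list, which is 1.89% and 2.03% of 26219 RefSeq genes, and 20 genes were in both.

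The samples were retinas of induced Tet-opsin-VEGFA mice and retinas of noninduced Tet-opsin-VEGFA mice, here called control, so that both groups carried the transgene. In mice of this design the opsin promoter directs a tetracycline-controlled VEGFA transgene to photoreceptors. No source used here gave the inducing agent, its duration or the age of the mice. The series text gives 2 retinas per condition, with 1 ChIP and 1 input library for each condition. Tissue was crosslinked with methanol and sonicated, and an antibody to transketolase was used for the precipitation. Without replicates, differences between induced and control lists could not be tested. All intervals are 95% intervals that cover counting error only. The files gave tags within peaks and not whole libraries, so library depth is unknown. The lowest tag count of any listed peak was 10 in the induced list and 14 in the control list.

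The core promoter is the stretch around a start site where RNA polymerase II and the general initiation factors assemble. Many mammalian promoters lie in CpG-rich DNA with GC boxes, while others carry a TATA box shortly before the start. Transketolase is an enzyme of the non-oxidative pentose phosphate pathway that moves carbon units between sugar phosphates, mainly in the cytosol. It carries no known DNA-binding domain. A crosslinked precipitate can hold DNA that reached the protein directly or through other proteins, and the peaks do not tell these apart.

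Promoter sequences are shown for 8 genes on which the description turns. Vim, H3f3c and Serbp1 were among the induced core promoter peaks of highest fold at protein-coding genes. Ftl1 and Clcn3 were among those of the control list. Acly, Mrpl22 and Zfp677 had core promoter peaks that overlapped between the lists. Each sequence is the 250 bases before the RefSeq start in GRCm38.p6, written 5′ to 3′ on the strand of the gene. Capitals mark a TATA box (TATAAA), the GC box (GGGCGG), the ETS site (CCGGAAG) or the CCAAT box, on either strand. Such a match is a run of letters and not a tested site.
Vim (chr2:13574061-13574310, plus strand): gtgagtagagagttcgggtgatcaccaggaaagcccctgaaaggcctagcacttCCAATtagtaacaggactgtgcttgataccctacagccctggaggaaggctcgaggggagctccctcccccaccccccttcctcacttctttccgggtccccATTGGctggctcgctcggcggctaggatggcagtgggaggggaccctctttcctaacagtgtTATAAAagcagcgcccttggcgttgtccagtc
H3f3c (chr2:119666153-119666402, minus strand): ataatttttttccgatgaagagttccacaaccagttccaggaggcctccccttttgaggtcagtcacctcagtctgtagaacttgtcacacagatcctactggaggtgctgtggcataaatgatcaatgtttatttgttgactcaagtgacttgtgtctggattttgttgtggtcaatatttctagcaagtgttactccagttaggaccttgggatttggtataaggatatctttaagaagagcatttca
Serbp1 (chr6:67266729-67266978, plus strand): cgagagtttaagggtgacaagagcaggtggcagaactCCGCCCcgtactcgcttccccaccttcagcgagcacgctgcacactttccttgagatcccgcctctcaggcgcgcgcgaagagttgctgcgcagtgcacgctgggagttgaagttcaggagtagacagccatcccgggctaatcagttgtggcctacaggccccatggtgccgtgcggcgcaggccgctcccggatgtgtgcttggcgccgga
Ftl1 (chr7:45459887-45460136, minus strand): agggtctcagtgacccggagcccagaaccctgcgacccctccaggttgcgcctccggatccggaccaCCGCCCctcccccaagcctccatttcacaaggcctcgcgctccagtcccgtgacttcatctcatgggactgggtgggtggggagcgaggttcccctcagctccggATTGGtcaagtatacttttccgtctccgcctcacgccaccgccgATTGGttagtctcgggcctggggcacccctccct
Clcn3 (chr8:60983312-60983561, minus strand): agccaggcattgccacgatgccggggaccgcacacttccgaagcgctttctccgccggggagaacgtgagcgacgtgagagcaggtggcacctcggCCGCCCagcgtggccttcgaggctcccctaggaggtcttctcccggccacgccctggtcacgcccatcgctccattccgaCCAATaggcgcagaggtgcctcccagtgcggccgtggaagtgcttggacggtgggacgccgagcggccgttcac
Acly (chr11:100528001-100528250, minus strand): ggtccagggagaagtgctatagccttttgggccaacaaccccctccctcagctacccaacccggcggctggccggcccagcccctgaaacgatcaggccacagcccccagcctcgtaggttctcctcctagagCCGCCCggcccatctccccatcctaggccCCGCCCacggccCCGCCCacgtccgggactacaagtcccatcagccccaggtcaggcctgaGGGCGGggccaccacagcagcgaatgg
Mrpl22 (chr11:58171414-58171663, plus strand): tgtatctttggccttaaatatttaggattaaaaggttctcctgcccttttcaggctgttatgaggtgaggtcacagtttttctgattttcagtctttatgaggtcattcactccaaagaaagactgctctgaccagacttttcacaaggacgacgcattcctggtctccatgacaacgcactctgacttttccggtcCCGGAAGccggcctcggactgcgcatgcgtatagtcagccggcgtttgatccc
Zfp677 (chr17:21383498-21383747, plus strand): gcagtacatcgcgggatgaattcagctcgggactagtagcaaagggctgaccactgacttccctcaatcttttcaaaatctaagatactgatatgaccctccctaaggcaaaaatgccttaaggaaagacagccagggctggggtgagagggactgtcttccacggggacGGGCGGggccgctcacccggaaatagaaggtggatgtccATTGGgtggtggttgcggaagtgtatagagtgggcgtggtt

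Within these stretches, Vim had 1 TATA box, whose first base was at -32 from the start, and 2 CCAAT boxes. H3f3c held none of the 4 motifs. Serbp1 had 1 GC box and 21 CpG sites, and Ftl1 had 1 GC box and 2 CCAAT boxes. Acly had 4 GC boxes, and Mrpl22 had the ETS site of this set. The induced Vim peak covered 113 of the 250 bases and the induced H3f3c peak covered 0, because both peaks lay mainly downstream of the start. The peaks at Serbp1, Ftl1 and Clcn3 each covered all 250.

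In both lists the centres lay on either side of the start, with more of them downstream. Of the induced core promoter peaks 57.3% (52.9 to 61.5%) were centred downstream, and of the control core promoter peaks 55.4% (51.2 to 59.5%). The median centre was 76 bp downstream in the induced list (32 to 122) and 59.5 bp downstream in the control list (15 to 110). The bin from 250 to 500 bp downstream held the most peaks of any 250 bp bin of the promoter class, with 159 induced and 158 control peaks. Outside the core, 719 induced promoter peaks were centred from 0.5 to 2 kb downstream and 556 from 0.5 to 2 kb upstream. The control list had 493 downstream and 516 upstream. Induced peaks stayed frequent into the gene, at 141 per bin from 750 to 1000 bp downstream, where the control list had 97. The listed start itself lay inside 51.9% of induced and 78.1% of control core promoter peaks. The median peak width was 550 bp in the induced list and 764.5 bp in the control list.

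**Figure D1:**
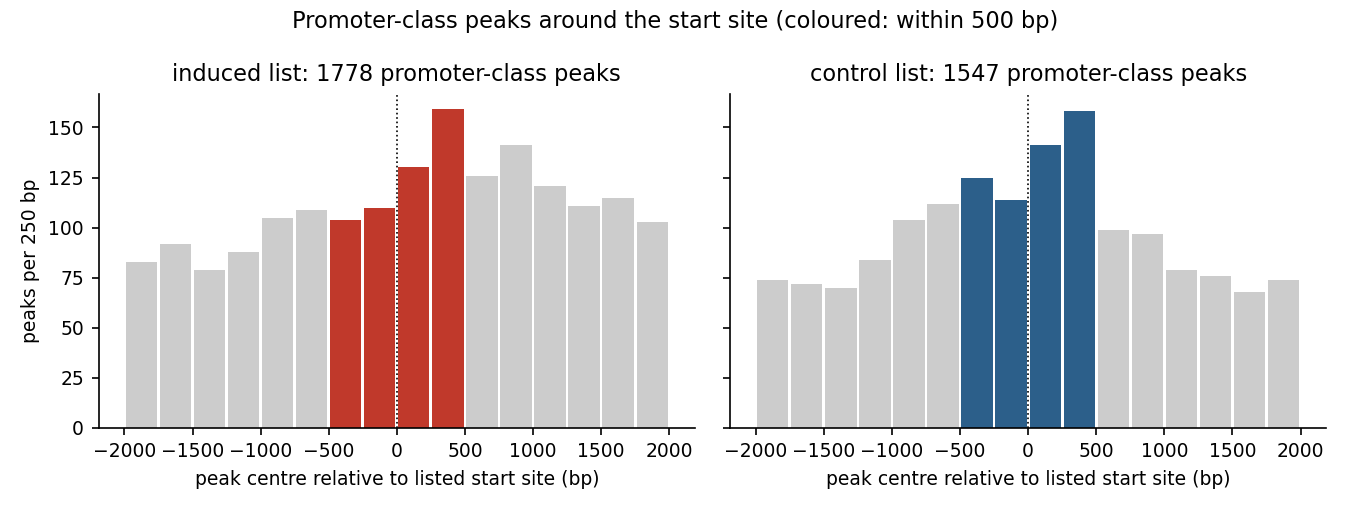
Number of promoter-class peaks per 250 bp by distance of the peak centre from the listed start site in bp, for the induced list (left) and the control list (right), with core promoter peaks coloured. The bin from 250 to 500 bp downstream is the highest in both lists, at 159 induced and 158 control peaks.

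The peaks nearest the 500 bp limit, on either side of it, are given without a test. Just inside were A830009L08Rik (-499 bp, 6.44-fold, 11 tags) and Prkag1, a subunit of the energy sensor AMPK (-499 bp, 8.59-fold, 14 tags), in the induced list. Just outside were Tbck (-503 bp, 10.74-fold, 10 tags) and Mrgpra1 (504 bp, 7.52-fold, 10 tags). In the control list Svil (7.33-fold, 17 tags) and D930016D06Rik (8.31-fold, 21 tags) lay just inside at -499 bp. Nkx1-1 (-501 bp, 4.89-fold, 18 tags) and Ror1 (502 bp, 5.86-fold, 17 tags) lay just outside.

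The median fold of core promoter peaks was above that of all other peaks of the same list, but not above that of exon peaks. Fold is the authors' listed enrichment, read here as ChIP signal over background. The backgrounds differ between the lists, so a fold of one list is not on the same footing as a fold of the other. In the induced list the median fold was 9.66 for core promoter peaks (8.61 to 9.66) and 8.59 for all other peaks. In the control list it was 6.235 (5.86 to 6.35) for core promoter peaks and 5.86 for all other peaks, the lower end of the core interval. Promoter peaks 0.5 to 2 kb downstream had a median fold of 9.53 in the induced list and 5.86 in the control list, and exon peaks had 10.74 and 6.35. Most induced peaks were shallow, with a median of 11 tags, against 19 tags for control core promoter peaks. Of the induced core promoter peaks, 261 (51.9%) held the lowest listed count or 1 tag more, against 83 (15.4%) of the control core promoter peaks. For all other peaks these shares were 60.9% and 20.7%. The median −log10 p was 5.434 for induced core promoter peaks and 5.144 for other induced peaks, and it was 5.0365 for control core promoter peaks and 4.757 for other control peaks. Core promoter peaks held 9176 induced tags, or 1.94% of tags in that list, and 11369 control tags, or 3.23%.

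The induced list had a small set of core promoter peaks with very high listed folds and the control list had none, on backgrounds that differ between the lists. At 20-fold or more there were 43 induced core promoter peaks, or 8.55%, where 3.48% of all induced peaks reached that fold. There were 0 among the 538 control core promoter peaks, where 0.00547% of all control peaks did. The 43 peaks held 37.7% of all tags in induced core promoter peaks. Of them, 34 were centred downstream of the start (79.1%, 64.8 to 88.6%), with a median of 288 bp (158 to 354). At a −log10 p of at least 10 there were 78 induced core promoter peaks (15.5%, against 6.07% of that list) and 16 control core promoter peaks (2.97%, against 0.838%). These belonged to 75 genes in the induced list and 16 in the control list, 0.286% and 0.061% of all genes. Induced exon peaks reached 20-fold in 15.6% of cases, promoter peaks 0.5 to 2 kb downstream in 10.0%, and those 0.5 to 2 kb upstream in 3.96%. The share of strong peaks in the induced list was thus higher on the transcribed side of the start than before it.

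**Figure D2:**
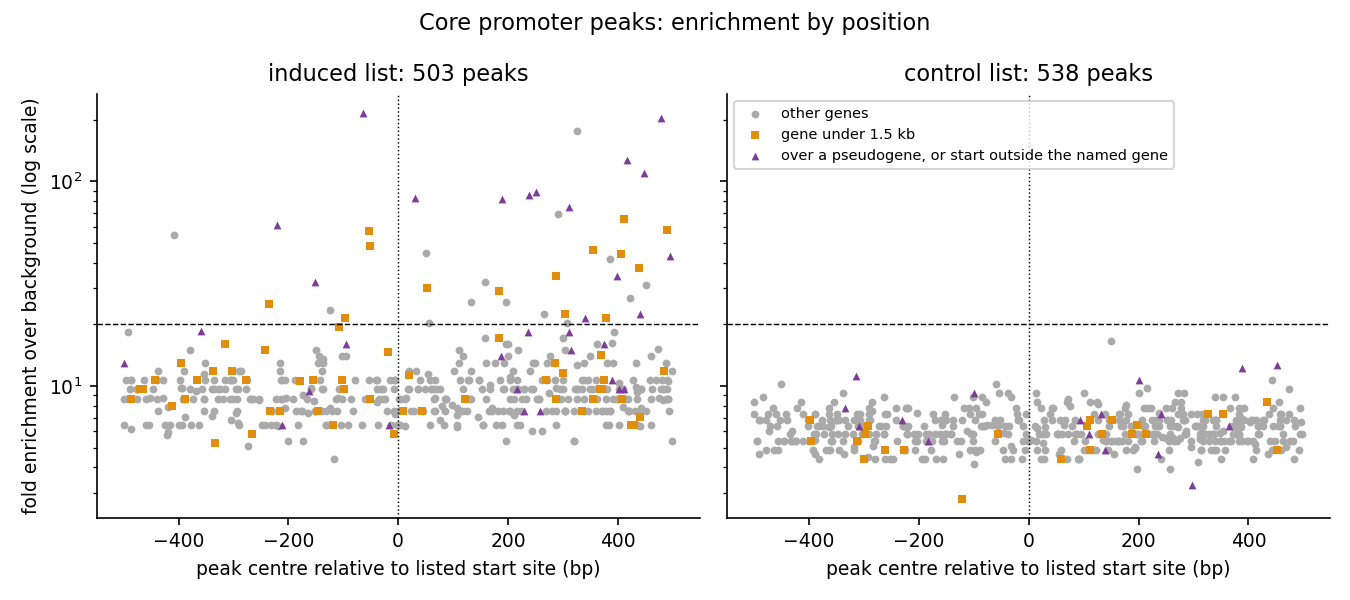
Fold enrichment over background (log axis) against the distance of the peak centre from the listed start site in bp, for the 503 induced (left) and 538 control (right) core promoter peaks, with the dashed line at 20-fold. Of the 43 induced peaks above the line, 34 are downstream, and no control peak reaches it.

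The strong induced peaks fell into 3 classes by what lay under them. A pseudogene lay under 14 of the 43, and 15 were either over a pseudogene or listed at a start outside the gene they name. A further 14 were at genes under 1.5 kb, and 14 at genes of 1.5 kb or more that held no annotated pseudogene under the peak. A processed pseudogene is a genomic copy of a spliced transcript, so reads from the copy and from its parent gene are hard to place. Among the other induced peaks of at least 20-fold, 662 of 1030 (64.3%, 61.3 to 67.1%) overlapped a pseudogene, against 32.6% (20.5 to 47.5%) of the strong core promoter peaks. Over all core promoter peaks the share was 4.97% in the induced list, near the 4.87% of that list as a whole. It was 2.42% in the control list, where 1.62% of all peaks overlapped a pseudogene.

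The 10 induced core promoter peaks of highest fold were mostly of the first class. Mir682, a microRNA gene, stood first at 215.83-fold with 201 tags, over the pseudogene Gm4149. Ubb-ps, a copy of the ubiquitin gene Ubb, had 481 tags at 204.45-fold, the most tags of any core promoter peak in the induced list. Rps6-ps4 had 109.53-fold, Rpl14-ps1 had 85.8-fold, Gm2245 had 82.96-fold and Gm15421 had 75.16-fold, each over a pseudogene. Snord58b, a small nucleolar RNA, had 126.27-fold over the pseudogene Gm8586, and its listed start on chromosome 14 differed from its RefSeq position on chromosome 18. Fau, which encodes a ubiquitin-like fusion with a ribosomal protein, had 88.91-fold on chromosome 16, while RefSeq places the gene on chromosome 19. Ppia, which encodes cyclophilin A, had 81.82-fold on chromosome 9, while RefSeq places it on chromosome 11. Listed starts outside the named gene occurred for 12 induced and 6 control core promoter peaks in all.

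Pabpc1 was the one gene among these 10 whose peak held no annotated pseudogene and lay at its own start. It encodes the cytoplasmic poly(A)-binding protein, and its peak at chr15:36608298-36608998 had 244 tags at 176.1-fold, centred 326 bp downstream.

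The 14 strong induced peaks at longer genes, which are named after their values were seen, were centred downstream in 12 of 14 cases. After Pabpc1 came Vim, which encodes the intermediate filament vimentin of Müller glia, at 69.13-fold with 93 tags, centred 291 bp downstream. C920006O11Rik had 54.6-fold at -409 bp. Serbp1, an mRNA-binding protein, had 44.66-fold with 81 tags, centred 51 bp downstream. Lmna, which encodes lamins A and C of the nuclear envelope, had 41.88-fold with 45 tags. Ybx1, which encodes a nucleic acid binding protein, had 32.21-fold, and Fscn1, which encodes the actin-bundling protein fascin, had 31.14-fold. Chmp1b, Mrfap1, Srsf9, Hdgf, Trir, Ywhaq and Pabpn1 ran from 26.84-fold with 34 tags at Chmp1b to 20.4-fold with 20 tags at Pabpn1, the nuclear poly(A)-binding protein. No control core promoter peak overlapped any of these 14. Over all induced core promoter peaks 3.38% overlapped one, so this count is near that share and is no trait of the 14.

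Among the 14 strong peaks at genes under 1.5 kb, H3f3c, H2ax and Rps29 are given first. H3f3c, a gene for an H3 histone, had 60 tags at 57.98-fold, centred 489 bp downstream. H2ax, the histone variant marked at DNA breaks, had 53 tags at 44.03-fold. Rps29, a ribosomal protein gene, had 36 tags at 25.19-fold. The fold in this class ran from 21.48 to 65.5, the last at Gm19774.

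Core promoter peaks assigned to small RNA genes mostly lay inside protein-coding genes. Starts of microRNAs accounted for 25 induced and 11 control core promoter peaks, and small nucleolar RNAs for 8 and 3. Of the peaks at such genes' own positions, 24 of 29 in the induced list and 10 of 11 in the control list had a listed start within the span of a protein-coding gene. The same share over all annotated small RNA genes is not at hand here, so these counts are not read as a trait of the peaks. The strongest outside a pseudogene were Mir6935 within Actg1, the gene for cytoplasmic gamma actin (57.37-fold, 92 tags), and Mir3064 within Ddx5, an RNA helicase gene (48.52-fold, 302 tags over 2531 bp). Mir677 lay within Atp5b, a mitochondrial ATP synthase gene (30.07-fold, 30 tags), and Snora64 within the ribosomal gene Rps2 (22.55-fold, 21 tags). Snord15b lay within Rps3 (21.48-fold, 21 tags), Snord37 within the elongation factor gene Eef2 (14.62-fold, 32 tags) and Snord14c within the chaperone gene Hspa8 (12.89-fold, 19 tags). In the control list the small RNA peak at its own position with the highest fold was Mir692-2 within Grik3, over the pseudogene Ftl2-ps (7.82-fold, 27 tags). The next was Snord98 within Ccar1 (7.33-fold, 35 tags). A microRNA acts on mRNAs through its seed, bases 2 to 8, given in capitals for the 3 microRNA genes of highest fold at their own positions with a listed mature sequence. These 4 mature sequences, from RefSeq with positions in GRCm38.p6, share no seed.
mmu-miR-682 (chr13:75645119-75645139, plus strand): cUGCAGUCacagugaagucug
mmu-miR-6935-3p (chr11:120347350-120347369, minus strand): uGUUCUUUgucuuuccacag
mmu-miR-3064-5p (chr11:106782736-106782757, minus strand): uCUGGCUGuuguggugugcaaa
mmu-miR-3064-3p (chr11:106782695-106782716, minus strand): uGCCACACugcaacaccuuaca

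The peaks cannot be assigned to the small RNA rather than to the gene around it, since both share the same DNA. Protein-coding genes made up most of both lists, with 430 of 503 induced core promoter peaks (85.5%) and 480 of 538 control ones (89.2%). Long noncoding RNAs accounted for 23 induced and 29 control peaks, and transcribed pseudogenes for 16 and 10.

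Control core promoter peaks had low and even folds, from 2.82 to 16.62. Ftl1, which encodes the ferritin light chain that stores iron, was highest with 41 tags at 16.62-fold, at chr7:45459324-45460149. Rplp2-ps1 followed at 12.71-fold, Ubb-ps at 12.22-fold with 34 tags, and Mir692-2 at 11.24-fold on chromosome 13 over the pseudogene Ftl1-ps1, away from its RefSeq position on chromosome 4. Cep43, a centrosome protein gene, and the Ppia copy both had 10.75-fold. Knstrn, which encodes a spindle and kinetochore protein, and Clcn3, a chloride/proton exchanger gene, both had 10.26-fold. Unc119, which encodes a photoreceptor lipid-binding chaperone, had 9.77-fold with 21 tags, and Pigp, a gene of GPI anchor synthesis, had 9.66-fold. Tag counts gave another order, led by wide peaks of low fold. Rn4.5s held 334 tags over 7581 bp at 2.82-fold, and 2610005L07Rik held 120 tags at 3.29-fold. Mir466d held 59 tags at 9.26-fold and Atad2b, a bromodomain gene, held 55 at 7.82-fold. Of the 10 control peaks of highest fold, 4 were over a pseudogene or away from the named gene, against 9 of the 10 induced ones.

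Few core promoter peaks recurred between the lists. Of the induced core promoter peaks, 22 overlapped any control peak by at least 1 bp (4.37%, 2.91 to 6.53%), where 1.63% of all induced peaks and 1.59% (1.45 to 1.74%) of the other induced peaks did. Of the control core promoter peaks, 22 overlapped any induced peak (4.09%, 2.72 to 6.11%), where 2.73% of all control peaks and 2.68% (2.46 to 2.93%) of the others did. In 17 pairs both peaks were core promoter peaks, and in 8 of these the centres lay within 100 bp. The 20 genes in both lists were 4.04% of induced and 3.76% of control genes with a core promoter peak. For Mir684-1, Pde4a and Plxnb2 the peaks of the 2 lists did not overlap.

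Of the 17 pairs, 5 were over a pseudogene or away from the named gene, and all 5 had centres within 100 bp. Ubb-ps had 481 induced and 34 control tags, Rps6-ps4 had 109 induced and 18 control tags, and the Ppia copy had 143 induced and 45 control tags. Morf4l1-ps1 had 27 induced and 17 control tags. Mir466d, listed outside its RefSeq position, had 58 induced and 59 control tags at 9.45-fold and 9.26-fold. Among the 12 other pairs, 3 had centres within 100 bp. These were Zfp677, a zinc finger gene (12 induced and 20 control tags), Eif2s2, which encodes the beta subunit of the initiation factor eIF2 (10 and 19), and Wdr17 (12 and 21).

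The remaining pairs met only at their edges or with centres farther apart. Acly encodes ATP citrate lyase, which supplies acetyl-CoA. Its induced peak was centred at -304 bp with 10 tags and 10.74-fold, and its control peak 296 bp downstream with 29 tags and 7.33-fold. Mrpl22, a mitochondrial ribosomal gene, had 15 induced tags (10.74-fold) and 23 control tags (8.31-fold). Krtcap2, a subunit gene of the oligosaccharyltransferase, had 18 induced and 14 control tags. Nqo1, which encodes an NADPH-using quinone reductase, had 10 induced tags at -182 bp and 32 control tags 341 bp downstream. Srsf11, a splicing factor gene, had 11 and 18 tags, Atl3, an ER membrane-shaping GTPase gene, had 11 and 23, and Nuak2, a kinase gene, had 13 and 18. Pacsin1 had 11 and 17 tags, and Zfp397 had 10 and 19. Across the 17 pairs the listed fold was higher in the induced list in 15 and the tag count in 5. Among the 12 pairs that were neither over a pseudogene nor away from the named gene the tag count was higher in the induced list in 1, Krtcap2. No scaling of the tag counts for depth is stated, and the folds rest on different backgrounds. These counts of pairs are therefore a description and no comparison of strength.

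**Figure D3:**
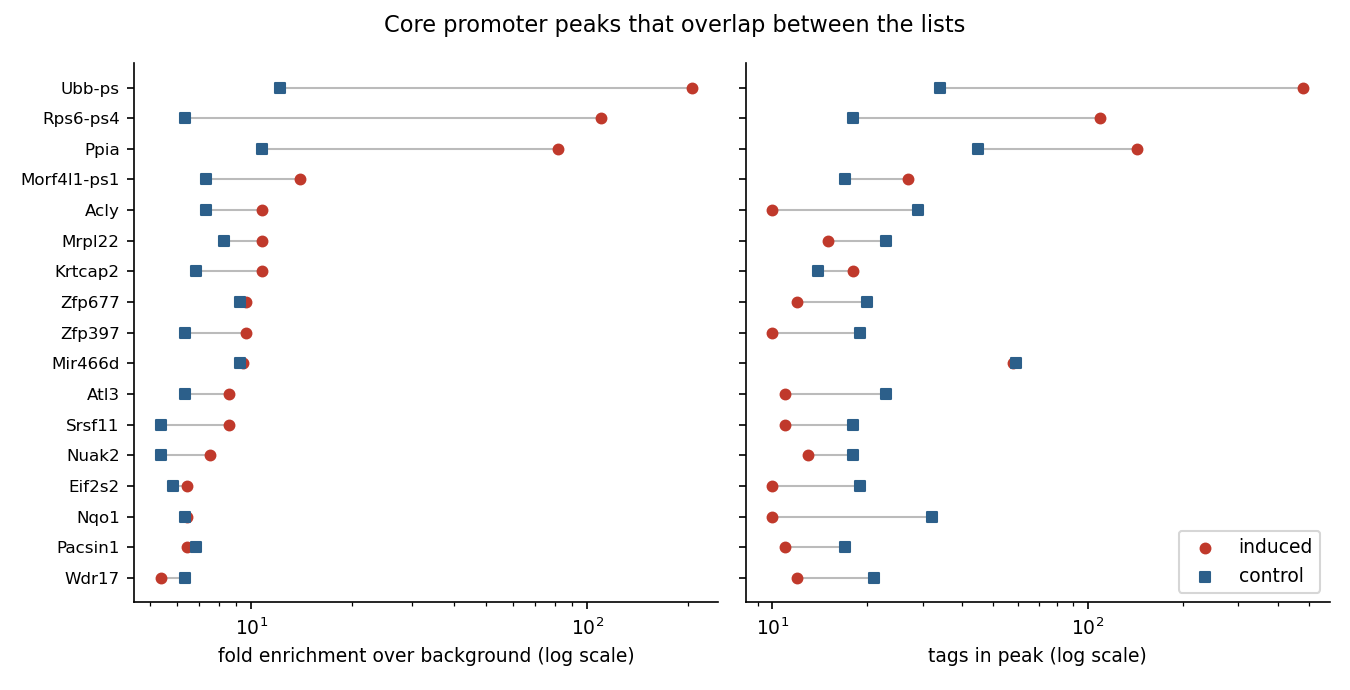
Listed fold over each list's own background (left, log axis) and tags in the peak (right, log axis) for the 17 core promoter peaks that overlap between the lists, with induced values as circles and control values as squares. Ubb-ps, Rps6-ps4 and the Ppia copy stand apart with 481, 109 and 143 induced tags.

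Some core promoter peaks met a promoter peak of the other list centred beyond the 500 bp limit. The control peak at Rplp2-ps1, centred 451 bp downstream with 30 tags, overlapped an induced peak of 161 tags and 141.27-fold centred at 684 bp. The induced peak at Prmt6, an arginine methyltransferase gene, centred 434 bp downstream with 37 tags, met a control peak of 18 tags at 509 bp. The control peak at Crebzf (-20 bp, 22 tags) met an induced peak of 16 tags and 15.03-fold at 805 bp. The control peak at Papolb (43 bp, 27 tags) met an induced peak of 13 tags at 702 bp, and the induced peak at Txndc5, an ER thioredoxin gene (-113 bp, 10 tags), met a control peak of 23 tags at -595 bp.

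The promoters under the lists differed in base composition. RefSeq promoter sequences ran from 250 bases before to 50 bases after the start, and each peak took the nearest promoter of its gene. One was at hand for 336 of 412 induced and 381 of 468 control core promoter peaks at the own start of a protein-coding gene outside chromosome 18, and its start lay within 250 bp of the listed one for 327 induced and 376 control peaks. These gave 334 induced and 381 control promoters. CpG-rich promoters were those with at least 55% GC and an observed-to-expected CpG ratio of at least 0.65. They made up 42.8% (37.6 to 48.2%) of induced and 62.7% (57.8 to 67.4%) of control core promoters, and 39.2% (38.5 to 39.9%) of 20488 promoters of all protein-coding genes. The intervals of the induced and control shares did not overlap over all core promoter peaks, and that of the induced list held the share of all promoters. For peaks centred downstream alone they did overlap, at 51.5% (44.6 to 58.3%) in the induced list and 60.3% (53.6 to 66.6%) in the control list. For induced peaks centred upstream 78.9% had a promoter sequence, under the 80% required here, so no share is read from them. Median GC content was 58.2% in the induced list (56 to 60.0%), 62.3% in the control list (61.0 to 63.7%) and 57.0% over all protein-coding promoters. For promoter peaks farther away the shares lay closer together. Downstream peaks from 0.5 to 2 kb had 49.1% (44.6 to 53.5%) CpG-rich promoters in the induced list and 51.0% (45.7 to 56.3%) in the control list. Upstream ones had 47.6% (42.5 to 52.7%) and 58.1% (53.1 to 63.0%). Median width also differed between the lists, as given above, and its part in the difference was not tested.

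Over all core promoter peaks, the GC box and the cAMP response element were less frequent in induced than in control core promoters. Their intervals did not overlap between the lists, while those of the ETS, TATA, CCAAT and NRF1 motifs did. For peaks centred downstream alone the intervals of the GC box and the cAMP response element overlapped too. The GC box was then in 57.0% (50.1 to 63.7%) of induced and 67.3% (60.7 to 73.2%) of control promoters. The cAMP response element was then in 1.0% (0.275 to 3.57%) and 3.27% (1.59 to 6.6%). Both strands were searched, and overlap between different motifs was allowed. The GC box GGGCGG, bound by Sp1-family factors, was in 52.4% (47.0 to 57.7%) of induced and 65.9% (61.0 to 70.5%) of control core promoters, and in 47.6% of all protein-coding promoters. The ETS site CCGGAAG was in 15.3% (11.8 to 19.5%) of induced and 23.1% (19.1 to 27.6%) of control core promoters, and in 11.9% of all. The TATA box TATAAA was in 15% (11.5 to 19.2%) of induced and 8.66% (6.23 to 11.9%) of control core promoters, and in 12.4% of all. The CCAAT box was in 37.1% (32.1 to 42.4%) and 31.8% (27.3 to 36.6%), and in 38.4% of all. The palindromic NRF1 site was in 3 induced (0.898%, 0.306 to 2.61%) and 12 control (3.15%, 1.81 to 5.42%) core promoters, and in 1.38% of all. The cAMP response element TGACGTCA was in 2 induced (0.599%, 0.164 to 2.16%) and 14 control (3.67%, 2.2 to 6.07%) core promoters, and in 2.3% of all.

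For motifs of stress pathways, the induced intervals held the share over all protein-coding promoters, while the control interval lay above it for the hypoxia response core and below it for the AP-1 site. The ER stress response element, which joins a CCAAT box to a CCACG run at a fixed spacing, was in 0 of 334 induced and 1 of 381 control core promoters, and in 0.146% of all protein-coding promoters. The hypoxia response core ACGTG was in 20.4% (16.4 to 25.0%) of induced and 26.5% (22.3 to 31.2%) of control core promoters, and in 21.2% of all. The E box CACGTG, which contains that core, was in 7.78% and 10.2%, and in 8.03% of all. The AP-1 site TGANTCA was in 6.89% (4.63 to 10.1%) of induced and 3.15% (1.81 to 5.42%) of control core promoters, and in 7.11% of all.

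**Figure D4:**
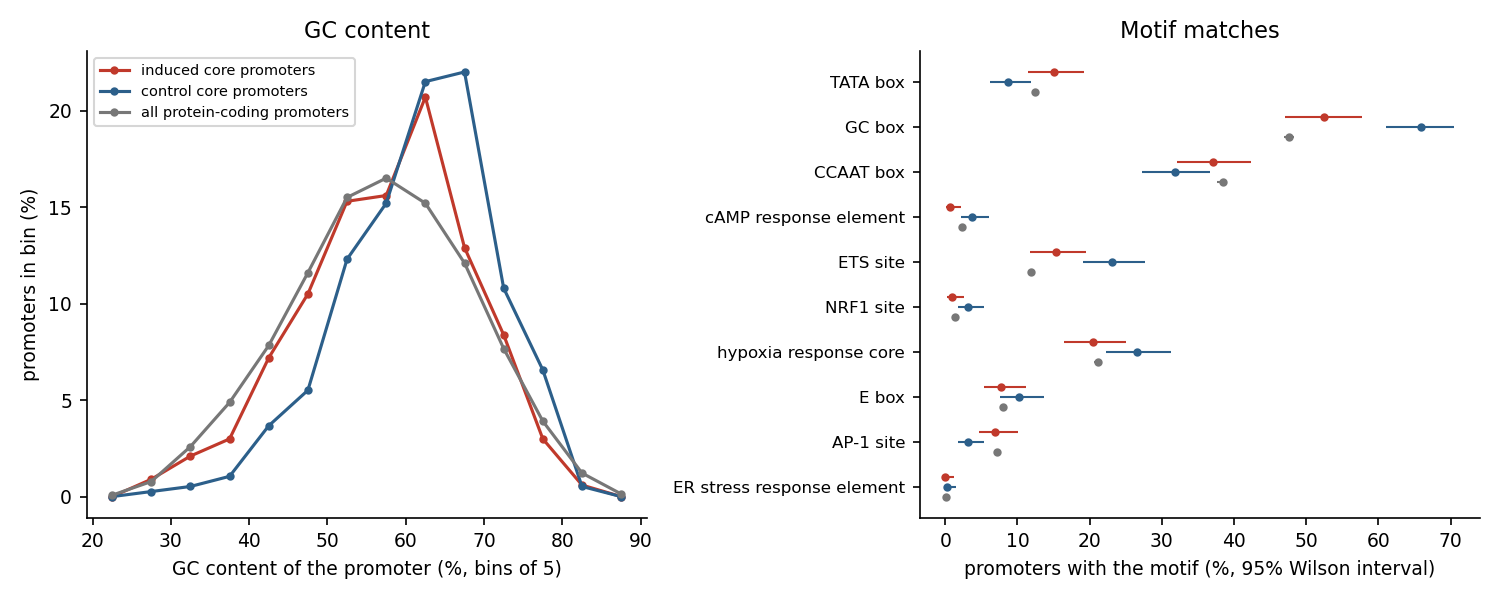
GC content of promoters (left, percent of promoters per bin of 5% GC) and share of promoters with each motif (right, percent with 95% Wilson intervals) for induced core promoters, control core promoters and all protein-coding promoters. The GC box was in 52.4% of induced, 65.9% of control and 47.6% of all promoters.

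Core promoter peaks reached few genes of any pathway examined. The series title names ER stress, and of 48 genes of ER stress and the unfolded protein response 1 had an induced core promoter peak (2.08%, 0.369 to 10.9%) and 4 a control one (8.33%, 3.29 to 19.6%), beside 1.89% and 2.03% of all genes. The induced gene was Atf3, a stress transcription factor, with 15 tags at 8.59-fold, centred at -223 bp. The control genes were Vcp, the ATPase that extracts proteins for degradation (19 tags, 6.84-fold), Calr, the ER chaperone calreticulin (22 tags, 5.86-fold), Ero1a, an ER oxidase (18 tags, 5.86-fold), and Bbc3, the pro-apoptotic PUMA (15 tags, 5.38-fold). No ER stress gene had a core promoter peak in both lists. Only 20 of all 26219 genes did, so this is no trait of the group. No peak of this group held more than 22 tags. Of 22 apoptosis and p53 genes 0 had an induced core promoter peak, which allows up to 13.6%, and Bbc3, which is also in that list, had a control one. Atf3 was also the one induced member of the 25 immediate early genes, none of which had a control peak.

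The pentose phosphate pathway itself, Tkt included, had no core promoter peak. The count was 0 of 14 genes in both lists, which allows a share of up to 21.4%. Tkt had no assigned peak of any class. Vegfa, the mouse gene of the name that the transgene carries, had 4 assigned induced peaks and 0 control peaks. Of these, 1 was a core promoter peak, at chr17:46031698-46032138, with 11 tags at 8.59-fold, centred 460 bp downstream. A transgene carrying Vegfa sequence can add reads to the native gene, and its part in this peak was not tested. The induced list is also longer, at 30791 against 18267 peaks, and reaches lower tag counts. The share of all genes with an assigned peak of any class is not at hand here. The counts of assigned peaks at Tkt and Vegfa are therefore not read as a trait of these genes. Epas1, the gene for hypoxia-inducible factor 2 alpha, was the one control member of the 36 VEGF and hypoxia genes (16 tags, 5.86-fold).

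Of 21 glycolysis genes Eno1, the enolase gene, had an induced peak (24 tags, 10.74-fold, centred 480 bp downstream) and none had a control peak. That is 4.76% (0.846 to 22.7%) in the induced list, where 1.89% of all genes had one. Among 36 oxidative phosphorylation genes Ndufa1, of complex I, had an induced peak of 11 tags at 8.59-fold, and none had a control peak. Among 24 chromatin and nuclear metabolic enzymes 3 had an induced peak (12.5%, 4.34 to 31.0%) and 2 a control peak (8.33%, 2.32 to 25.8%), beside 1.89% and 2.03% of all genes. They were Acly, the DNA demethylase gene Tet1 (11 tags, 9.66-fold) and the acetyltransferase gene Ep300 (11 tags, 6.44-fold) in the induced list. In the control list they were the histone demethylase gene Kdm1a (17 tags, 7.82-fold) and Acly.

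For genes of retinal identity the counts were small, beside 1.89% of all genes in the induced list and 2.03% in the control list. Of 25 retinal transcription factor genes 0 had one in either list, which allows a share of up to 12%. Of 35 phototransduction genes 1 had an induced peak (2.86%, 0.506 to 14.5%) and 2 a control peak (5.71%, 1.58 to 18.6%). Cngb1, a rod channel subunit, had an induced peak of 13 tags over the pseudogene Gm5359, and Unc119 and the GTPase activator gene Rgs9 (26 tags, 6.84-fold) had control peaks. Vim was the one induced member among the marker lists, which held markers of photoreceptors, Müller glia, bipolar, amacrine and ganglion cells, microglia, endothelium and pigment epithelium, and no marker had a control peak. Peaks do not measure expression, so these lists give no check of the tissue.

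Genes of gene expression itself gave mixed counts, beside 1.89% of all genes in the induced list and 2.03% in the control list. The intervals of these gene lists held those shares in both peak lists. Of 35 genes of RNA polymerase II and the general initiation factors, 1 had an induced peak (2.86%, 0.506 to 14.5%) and 2 a control peak (5.71%, 1.58 to 18.6%). Gtf2b, the gene for TFIIB, had the induced peak (10 tags, 6.44-fold). Polr2j (24 tags, 6.02-fold) and Polr2b (17 tags, 5.38-fold) had the control peaks. Of 35 spliceosome genes Sf3b5 had an induced peak (12 tags, 12.89-fold), which is 2.86% (0.506 to 14.5%), and 0 had a control peak, which allows up to 8.57%. Of 87 cytosolic ribosomal protein genes 3 had an induced peak (3.45%, 1.18 to 9.65%) and 4 a control peak (4.6%, 1.8 to 11.2%). The induced ones were Fau, Rpl32l (28.99-fold) and Rps29. The control ones were Rpl21, Rpl22, Rps26 and Rplp1, at 4.89-fold to 6.84-fold. The Fau peak was at the copy on chromosome 16. The list of histone genes gave 3 induced members of 68 (4.41%, 1.51 to 12.2%) and 0 control members, which allows up to 4.41%. It is not a full list, so the share covers the listed genes only. H3f3c and H2ax, both given above at higher folds, and also H2aj and H2al2a had induced core promoter peaks but were not among its counted members. The induced members of the list were H2ac19, H2ac18 and the oocyte linker histone gene H1f8. H2ac18 and H2ac19 are near-identical neighbours and their listed starts were each at the other's position, so their reads may be split between them.

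Among the large families, zinc finger genes named Zfp had 9 induced members of 393 (2.29%, 1.21 to 4.29%) and 16 control members (4.07%, 2.52 to 6.51%). This stands beside 2.03% of protein-coding genes in the induced list and 2.27% in the control list. Zfp677 and Zfp397 were in both. Zfp260 (24 tags, 8.8-fold), Zfp715 (25 tags, 7.82-fold) and Zfp120 (26 tags, 7.33-fold) followed Zfp677 in the control list, and Zfp420 (10 tags, 9.75-fold) stood first in the induced list. Olfactory receptor genes, which are silent in most tissues, had 12 induced members of 1105 (1.09%, 0.622 to 1.89%) and 5 control members (0.452%, 0.193 to 1.05%), both under the share over protein-coding genes. Olfr3, Olfr259, Olfr32 and Olfr381 had 10 to 15 induced tags. MicroRNA genes had 23 induced members of 1190 (1.93%, 1.29 to 2.88%) and 10 control members (0.84%, 0.457 to 1.54%). Small nucleolar RNA genes had 8 induced members of 124 (6.45%, 3.31 to 12.2%) and 3 control members (2.42%, 0.826 to 6.87%). Beside these noncoding families stand 1.89% of all genes in the induced list and 2.03% in the control list.

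**Figure D5:**
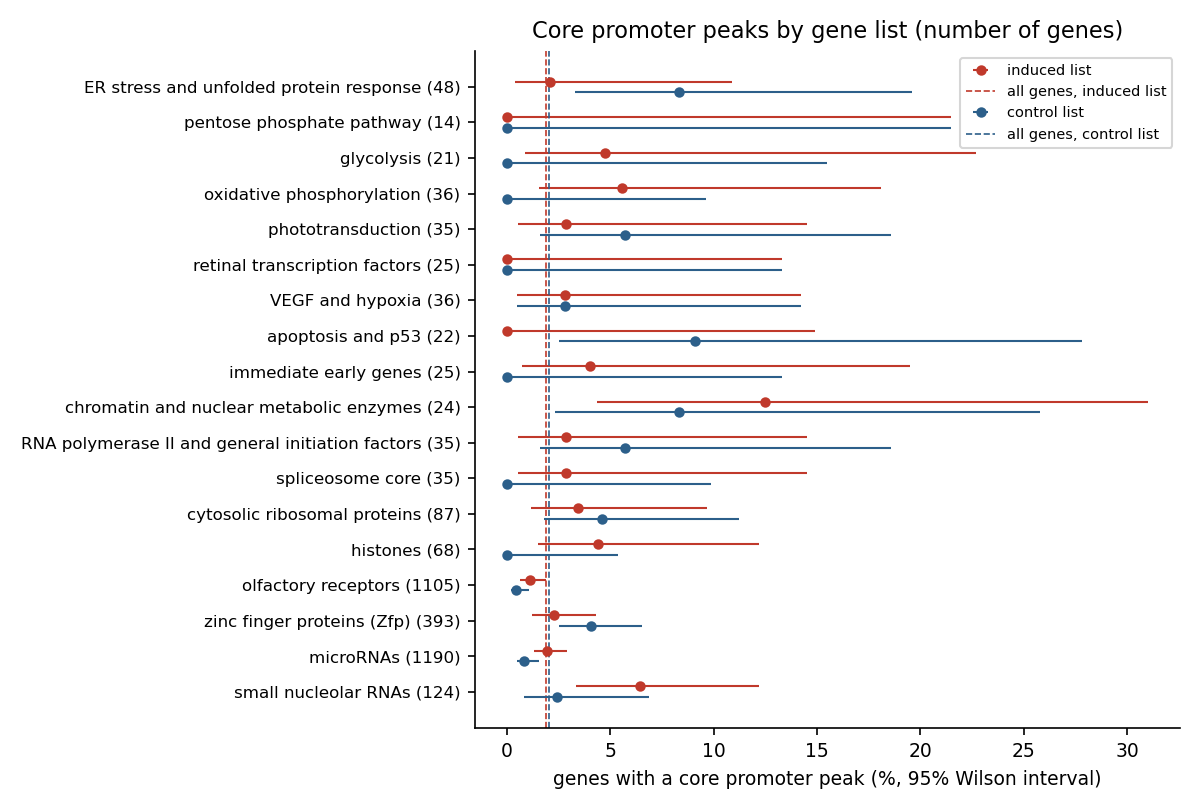
Share of the genes of each list with a core promoter peak (percent, 95% Wilson interval), with induced above control in each row and the shares over all genes as dashed lines at 1.89% (induced) and 2.03% (control). Most intervals are wide and hold the dashed lines, and small nucleolar RNAs reached 6.45% in the induced list.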

How the data were processed

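Reads were aligned with Bowtie2 2.2.7 to mm10 (GRCm38), per the submitters' processing notes, which also name FastQC. Which peak caller was used is not given in the sources used here. Deposited tag counts are whole numbers per peak, and the file headers state no scaling for depth. Deposited folds are named fold enrichment in the file headers, and are read here as ChIP signal over a background of unstated origin. The score column, deposited as 10 times −log10 p, is printed here divided by 10. Deposited false discovery rates are in percent. A further 3 sheets held no values.

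Each peak was counted once, by the first of its annotation lines. The stated threshold for strong peaks was 20-fold. Gene types, spans and pseudogenes came from RefSeq GRCm38.p6, and a start was at its own gene within 1000 bp of the gene's span. Promoter shares used protein-coding genes, since the promoter table covered under 80% of all members. Shares have Wilson intervals, and medians have binomial intervals from ranked values. The overlap and interval steps were tested on simulated data. Named genes were the 10 of highest fold and the 5 of most tags per list, pairs in both lists, up to 4 members per gene list (some members are not reported here), the peaks at the 500 bp limit, Tkt and Vegfa. Members and lists were chosen with earlier results of these data known. Alternatives covered the threshold, the window, tag minimum, pseudogenes and overlap. Computation used matplotlib 3.10.9, scipy 1.17.1, numpy 2.4.6 and pandas 2.3.3 under Python 3.11.15.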

Additional observations from a re-analysis of the deposited data

How the results depend on the processing

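No paired analysis was possible because no result came from a test. No replicate could be left out either, with 1 ChIP library per condition. Over the alternatives first listed 58 values stayed within their own interval or within 1.5 times the count and 52 moved, and over those added after seeing the data 16 stayed and 2 moved. The induced share stayed below the control share under every alternative run, though with a minimum of 14 tags the shares were 2.57% and 2.95%. All alternatives rest on the same 2 lists without replicates, so the constant direction adds no support. At −log10 p of at least 10 the core promoter share was 4.18% induced and 10.5% control, the median fold 21.5 and 9.29, the genes 75 and 16 with 2 in both, the share downstream 75.6% and 68.8%, the pseudogene share 24.4% and 25.0%, the overlap with the other list 2.56% and 18.8% with 2 pairs, and the gene list members 22 and 2. CpG-rich promoters were then 67.7% induced and 81.8% control, void in the induced list because under 80% of those genes had a sequence. With a false discovery rate listed as 0, a setting added after seeing the data, the share was 4.04% induced and 12.7% control. With equal numbers of peaks the induced list had a share of 1.82%, a median fold of 10.7 and 327 genes, and 13 genes were in both. Any annotation line in place of the first gave an induced share of 1.81%. A minimum of 14 tags gave an induced share of 2.57%, a median fold of 14, 140 genes, 63.6% downstream and a pseudogene share of 13.3%, with 9 genes in both. Within 250 bp the share was 0.783% induced and 1.4% control, the genes 238 and 253 with 8 in both, the pairs 6, and the gene list members 34 and 24. Within 1000 bp these were 3.2% and 5.2%, 961 and 934 with 51 in both, 31 pairs, and 132 and 83 members. Without peaks of at least 20-fold the induced pseudogene share was 2.39%. With an overlap of at least 50% of both peaks there were 10 pairs, and 2.58% of induced and 2.04% of control core promoter peaks overlapped the other list. With centres within 200 bp there were 10 pairs, 2.19% and 1.86%. The cause of these moves was not tested. Protein-coding promoters became the reported set, so that alternative was not run, and a pseudogene share without pseudogene peaks has no value. Unknown depth limits any reading of peaks near the lowest tag count.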
